A study of Mus musculus with 8 samples.

Results

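The genes described here are the RAB, ARF and ARL small GTPases of cultured adult mouse cardiomyocytes. They were chosen by their symbol and selected on their counts: every row named RAB, ARF or ARL in the pattern of these families, with a sum of at least 40 counts over all 8 libraries. Of 33514 gene rows in the table, 90 carried such a symbol and 29 reached the sum, 20 RAB, 4 ARF and 5 ARL genes. RNA was sequenced from C57BL/6 cardiomyocytes in 2 groups of 4 libraries each, one transfected with siHoxa5, a small interfering RNA against the homeobox transcription factor Hoxa5, and the other with siN, a control of that kind without this target. Both groups were given the alpha1-adrenergic agonist phenylephrine (100 µM, 24 h), starting 24 h after transfection, and cells without phenylephrine were not analysed here. Whether the repeats within a group are separate cultures or animals cannot be read from the labels, so each p-value is set by the spread over the sequenced libraries, which may be technical.

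Small GTPases of these families are molecular switches that direct membrane traffic. In the GTP-bound form they sit on a membrane and recruit coats, motors and tethers; exchange factors load them with GTP and GTPase-activating proteins (GAPs) turn them off. RAB proteins give each compartment its identity, ARF proteins drive coat assembly and lipid signalling, and ARL proteins include regulators of Golgi tethering and of lysosome movement. In heart muscle cells this machinery carries ion channels, receptors and the insulin-responsive glucose transporter to and from the surface.

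In siHoxa5 libraries 6 of the 29 genes (25 of them tested) were lower than in siN libraries and 0 were higher, where 3.38% of all tested genes were lower and 3.74% higher. By DESeq2 1 of the genes was lower, and without siN library 2 the count was 0. Among the 6 were ARF1, which recruits the COPI coat at the Golgi, the Golgi-associated RAB30, RAB21 of early endosomes, and ARF6, which acts at the plasma membrane and on endosomes. Relative to siN, the mean level of RAB30 fell by 24.8%, that of ARF1 fell by 22.5%, that of RAB21 fell by 16.1% and that of ARF6 fell by 11.3%. The differences were thus modest, and most of the abundant genes of the families, among them RAB1A, RAB10, RAB6A, RAB11A and RAB14, did not pass the test. The test was edgeR's quasi-likelihood test fitted on all genes, with Benjamini-Hochberg adjustment over the 3020 genes that passed a filter on low counts and a threshold of 0.05 on the adjusted p.

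Between 560190 and 619942 counts were recorded in a siHoxa5 library (mean 592601 ± 29616, SD, n = 4) and between 635824 and 658192 in a siN library (646832 ± 10946, SD, n = 4). HOXA5 itself had 9 counts over the 4 siHoxa5 libraries and 8 over the 4 siN libraries. A lower level of the siRNA's target could not be measured from so few counts, and why they were few was not tested. On the first principal component, which held 25.8% of the variance, siHoxa5 libraries 2 and 4 (at −10.8 and −11.0) lay farther from the siN libraries (6.30 to 7.77) than siHoxa5 libraries 1 and 3 (−2.74 and −4.69). Of 14 cardiomyocyte markers 9 had counts, and TNNI3, PLN, MB, MYL2 and MYL3 were at 0; the summed marker level was 68214 to 73169 CPM in siHoxa5 libraries and 54043 to 57620 CPM in siN libraries. CPM are depth-scaled counts on TMM-scaled library sizes. Of these markers MYH6, MYH7, TTN, ACTN2 and ATP2A2 were higher in siHoxa5 libraries, with log2 fold changes of 0.24 to 0.66, and TNNT2 was lower, with −0.44 (adjusted p = 0.0257, edgeR). Fibroblast markers (7 of 10 with counts, LUM, TCF21 and DPT at 0) summed to 10904 to 12848 CPM in siHoxa5 libraries and 10179 to 10848 CPM in siN libraries. Only 2 of the 10 passed the filter on low counts. Most of these sums was COL1A1, which averaged 10284 CPM in siHoxa5 libraries and 8861 CPM in siN libraries. COL1A1 was higher in siHoxa5 libraries (log2 fold change 0.21, adjusted p = 0.000195, edgeR). Endothelial markers (3 of 9, with PECAM1, CDH5, TIE1, VWF, CLDN5 and EMCN at 0), smooth muscle and pericyte markers (4 of 8, with CNN1, PDGFRB, RGS5 and CSPG4 at 0) and macrophage markers (3 of 8, with CD68, ADGRE1, CD14, ITGAM and CX3CR1 at 0) reached at most 34.3 CPM in any library. The part of the shifts in cardiomyocyte markers and in COL1A1 in the GTPase results was not tested, and in such bulk libraries fewer cells of a type and less RNA per cell cannot be told apart.

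Counts were spread very unevenly over the families. The 6 highest genes held 65.3% of the member counts, with RAB1A alone at 10930 counts over the 8 libraries. Just inside the sum of 40 lay RAB22A with 40 and RAB9A with 45 counts, and just outside it RAB34 with 39 and RAB20 with 35. Of the 61 symbols that did not reach the sum, 23 had between 1 and 39 counts and 38 had 0. Among those listed at 0 were RAB1B, RAB4A and ARF3, while RAB5A had 5 counts, RAB5C 1 and RAB11B 28. A symbol listed at 0 need not have had little RNA, since the cardiomyocyte genes MB, MYL2, MYL3, PLN and TNNI3 were also listed at 0. Gene symbols follow human spelling although the mouse build mm10 is named, and from the sources used here it is not certain which genome and annotation the counts rest on. All 29 members matched a mouse gene by name, RAB7A and RAB9A through a synonym. The sources used here do not give the rule for reads that match close relatives such as RAB1A and RAB1B. Levels split between such relatives are therefore uncertain, and whether this bears on the symbols at 0 was not tested.

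**Figure D1:**
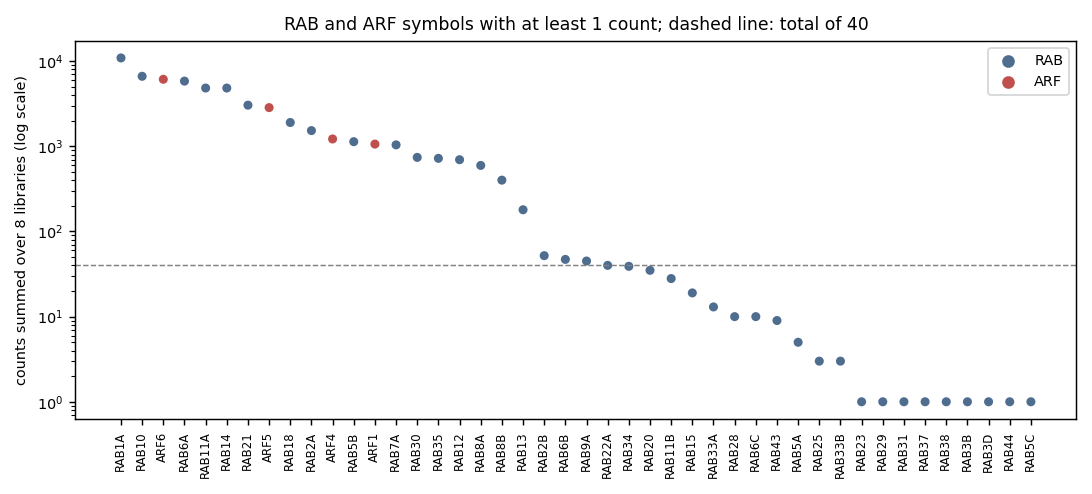
Counts summed over the 8 libraries (log axis) for each RAB and ARF symbol with at least 1 count, ordered from highest to lowest and coloured by family. The dashed line marks the sum of 40 by which genes were chosen; RAB22A (40) is the last above it and RAB34 (39) the first below.

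Per kilobase of transcript, ARF6 and RAB1A had the highest values among the members. They stood at 766 and 755 CPM per kb in siHoxa5 libraries and 864 and 824 CPM per kb in siN libraries. ARF5 followed with 497 CPM per kb in siHoxa5 libraries and 546 in siN libraries. RAB11A stood at 415 in siHoxa5 libraries and 431 in siN libraries, and RAB10 at 383 and 391 CPM per kb in the same order of groups. RAB30 was far lower, at 13.7 CPM per kb in siHoxa5 libraries and 18.2 in siN libraries, ARF1 stood at 94.4 and 122 and RAB21 at 123 and 147 in the same order of groups. Transcript lengths are those of the longest protein-coding mouse transcript of the same name, so these levels are approximate. The annotation behind the counts and the rule for reads shared by relatives are not known. The order of genes by level is therefore uncertain.

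In the ARF family 2 of 4 genes were lower, where 3.38% of all tested genes were called lower. ARF1 had 199, 184, 225 and 144 CPM in siHoxa5 libraries, against 243, 237, 257 and 234 CPM in siN libraries. The groups did not overlap, with siHoxa5 library 4 the lowest, and the log2 fold change, siHoxa5 over siN, was −0.36 (SE 0.11, adjusted p = 0.0303, edgeR). ARF6, which controls endosome recycling and cortical actin, had 1138, 1255, 1216 and 1091 CPM in siHoxa5 libraries, against 1277, 1387, 1276 and 1360.3 CPM in siN libraries. Here too all siHoxa5 libraries lay below all siN libraries. The difference was small for a gene measured with 6135 counts, −0.17 on the log2 scale (SE 0.06, adjusted p = 0.0496, edgeR).

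The other two ARF genes, both of the Golgi, also had negative fold changes that did not pass. ARF4 had 279, 164, 220.1 and 231 CPM in siHoxa5 libraries and 295, 232, 297 and 262 CPM in siN libraries. These ranges overlapped (log2 fold change −0.28, SE 0.11, adjusted p = 0.125, edgeR). ARF5 had 511, 552, 574 and 580.2 CPM in siHoxa5 libraries and 611, 590.5, 617 and 619 CPM in siN libraries, with no overlap between groups but an adjusted p of 0.288 (edgeR, log2 fold change −0.14, SE 0.07). Over the 4 tested ARF genes the median log2 fold change was −0.22. The log2 ratio of ARF4 to ARF5, chosen after the values were seen with the other ratios of relatives (4 in all), averaged −1.33 ± 0.36 in siHoxa5 libraries and −1.17 ± 0.15 in siN libraries (SD, n = 4 each). This difference of −0.16 did not pass (two-sided exact permutation test, p = 0.514, Benjamini-Hochberg adjusted over the 4 ratios 0.514, smallest possible p 0.0286).

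Of the 20 RAB genes 16 passed the filter, and 2 of them were lower, where 3.38% of all tested genes were called lower. The median log2 fold change of the 16 was −0.09. RAB30 is a Golgi RAB. It had 121, 129, 148 and 118 CPM in siHoxa5 libraries, against 163, 176, 178 and 170.0 CPM in siN libraries, so that every siHoxa5 library lay below every siN library. Its log2 fold change was −0.41 (SE 0.13, adjusted p = 0.0342, edgeR). RAB21, which directs integrins through early endosomes, had 545, 568, 592 and 558 CPM in siHoxa5 libraries, against 664, 716, 672 and 645 CPM in siN libraries. The groups did not overlap, and the means differed by more than the SD of either group, 566 ± 19.7 CPM in siHoxa5 libraries and 674 ± 30.0 CPM in siN libraries (SD, n = 4 each). The log2 fold change was −0.25 (SE 0.07, adjusted p = 0.0151, edgeR).

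**Figure D2:**
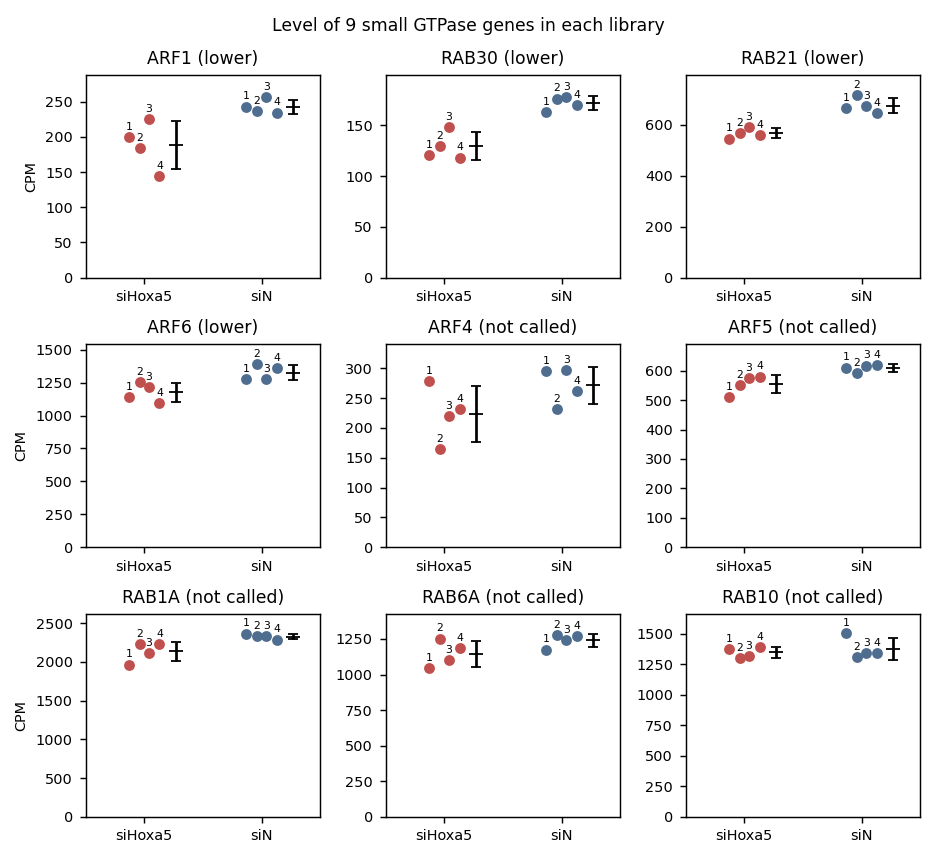
CPM of 9 small GTPase genes in each siHoxa5 library (red, left) and siN library (blue, right), with replicate numbers and the mean ± SD (n = 4); axes start at 0 and differ between panels. ARF1, RAB30, RAB21 and ARF6 were lower, with no overlap of groups, and the other 5 genes were not called.

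Among the other RAB genes of the endoplasmic reticulum and Golgi, RAB1A, which moves cargo between these compartments, had 1966, 2229.6, 2115 and 2229.8 CPM in siHoxa5 libraries and 2365, 2329, 2329 and 2289 CPM in siN libraries. The groups did not overlap, yet the log2 fold change of −0.13 (SE 0.05) did not pass the test (adjusted p = 0.137, edgeR). RAB6A, of Golgi retrograde transport, had 1045, 1253, 1099 and 1184 CPM in siHoxa5 libraries and 1175, 1275, 1240.3 and 1271 CPM in siN libraries. Its groups overlapped (log2 fold change −0.12, SE 0.06, adjusted p = 0.256, edgeR). RAB2A and RAB18 had log2 fold changes of −0.01 and −0.03.

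RAB5B, the second early endosome gene tested, ranged from 204 to 251 CPM in siHoxa5 libraries and from 195 to 273 CPM in siN libraries (log2 fold change −0.09, adjusted p = 0.692, edgeR). The RAB genes of recycling showed small estimates. RAB11A, which returns cargo from recycling endosomes, ranged from 882 to 1029 CPM in siHoxa5 libraries and from 995 to 1018 CPM in siN libraries. RAB14, between Golgi and endosomes, ranged from 909.8 to 1011 CPM in siHoxa5 libraries and from 933 to 1079 CPM in siN libraries. Both overlapped. Their log2 fold changes were −0.06 and −0.02, with approximate 95% intervals of −0.18 to 0.07 and −0.14 to 0.10, and that of RAB35, of fast recycling, was 0.02 (−0.23 to 0.28).

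In the late endosomal group RAB12, which sends transferrin receptor to lysosomes, had 129, 126, 135 and 122 CPM in siHoxa5 libraries and 146, 154, 164 and 158 CPM in siN libraries. The groups did not overlap, but the gene was not called (log2 fold change −0.28, SE 0.13, adjusted p = 0.216, edgeR). RAB7A, of late endosomes and lysosomes, ranged from 158 to 238 CPM in siHoxa5 libraries and from 195 to 265 CPM in siN libraries and overlapped (log2 fold change −0.15, adjusted p = 0.513, edgeR).

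None of the 4 tested RAB genes of exocytosis passed (0 at an unadjusted p under 0.05, 0 by DESeq2). RAB10 moves the insulin-responsive glucose transporter in fat cells. It had 1375, 1299, 1314 and 1391 CPM in siHoxa5 libraries and 1501, 1308, 1341 and 1339 CPM in siN libraries. The log2 fold change was −0.03 (approximate 95% interval −0.14 to 0.08). RAB8A ranged from 96.5 to 142 CPM in siHoxa5 libraries and from 115 to 138 CPM in siN libraries (log2 fold change −0.16, SE 0.14), and its relative RAB8B from 83.8 to 89.7 CPM in siHoxa5 libraries and from 67.7 to 92.3 CPM in siN libraries (0.15, SE 0.17). RAB8A over RAB8B averaged 0.39 ± 0.26 in siHoxa5 libraries and 0.73 ± 0.21 in siN libraries on the log2 scale (SD, n = 4 each), a difference of −0.34 that did not pass (two-sided exact permutation test, p = 0.114, adjusted 0.4). RAB13, with the fewest counts of the 4, had a log2 fold change of −0.08 (SE 0.25).

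The 4 members under the filter on low counts were compared as counts. RAB2B had 25 counts over the siHoxa5 libraries and 27 over the siN libraries, a rate ratio of 1.02 with an exact 95% interval of 0.569 to 1.83. RAB6B had 27 counts in siHoxa5 libraries and 20 in siN libraries (ratio 1.49, 0.806 to 2.81), RAB9A 23 and 22 (1.16, 0.615 to 2.17) and RAB22A 17 and 23 (0.817, 0.410 to 1.60), in the same order of groups. Every interval included 1 and covers counting error only. Tested without the filter, none of the 4 passed, and their log2 fold changes, from −0.28 (RAB22A) to 0.57 (RAB6B), had standard errors of 0.48 to 0.56 (adjusted p = 0.584 to 0.973, edgeR).

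**Figure D3:**
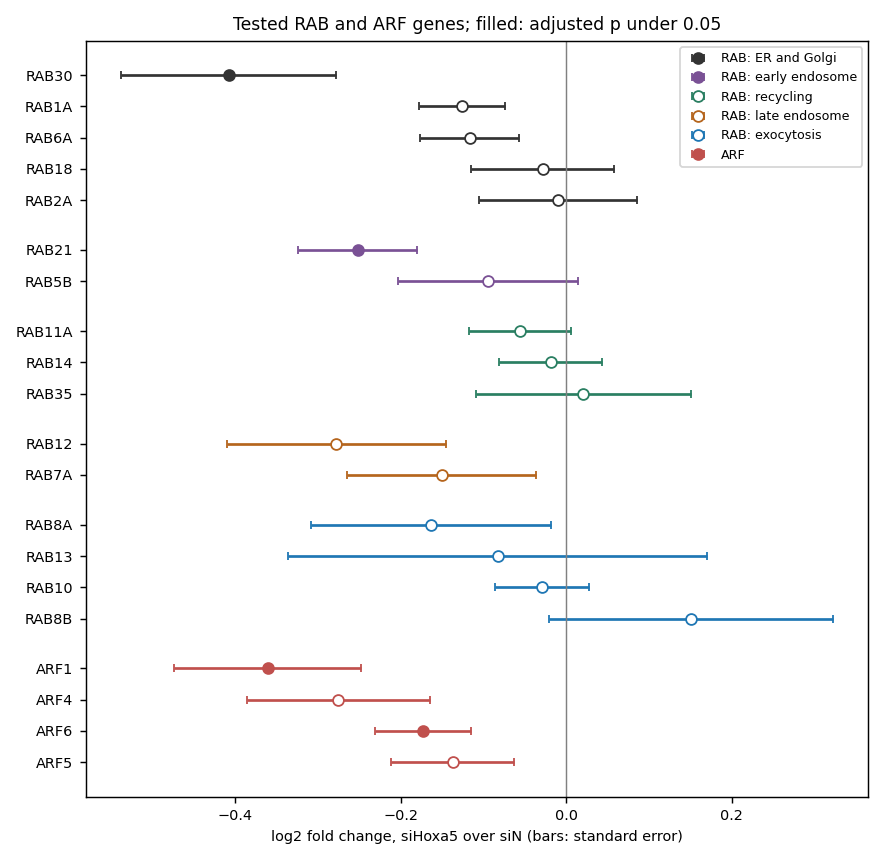
Log2 fold change, siHoxa5 over siN, of the tested RAB and ARF genes with its standard error, grouped by compartment or family; filled points passed the adjusted p threshold of 0.05. The 4 filled points lie left of 0, and the estimates run from −0.41 (RAB30) to 0.15 (RAB8B).

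Read against all genes, 24.0% of the 25 tested members were called lower, where 3.38% of the 3020 tested genes were called lower, 3.74% higher and 7.12% in either direction (edgeR, adjusted p under 0.05). None of the members was higher at an unadjusted p under 0.05 or by DESeq2 (0 and 0), and 10 were lower at an unadjusted p under 0.05. The share of all tested genes at the unadjusted threshold was not counted. The 3.38%, at the adjusted threshold, is no measure for these 10. Estimates were negative for 22 of 25 members (88.0%) and for 1528 of 3020 tested genes (50.6%). The median log2 fold change was −0.14 over the members and −0.0037 over all tested genes. In 9 members every siHoxa5 library lay below every siN library, the 6 called genes with RAB1A, RAB12 and ARF5, and in 0 the reverse held; such a gap was seen in 5.76% of all tested genes in the lower direction, 6.19% in the higher and 12.0% in either. Standard errors of ARF6, RAB21, ARF1 and RAB30 were 0.06 to 0.13, against a median of 0.17 over all tested genes. Genes with smaller errors are called more readily, and shares over genes of similar counts were not taken. The genes are not independent of each other and were singled out with earlier results known, so these shares are a description and carry no test.

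The share of counts in these genes was lower in each siHoxa5 library than in any siN library. Member rows held 1.159%, 1.162%, 1.156% and 1.123% of the counts of siHoxa5 libraries 1 to 4 and 1.273%, 1.280%, 1.256% and 1.268% of those of siN libraries 1 to 4. The mean share was 1.15% ± 0.0181 in siHoxa5 libraries and 1.27% ± 0.00995 in siN libraries (SD, n = 4 each). The Wilson 95% intervals of the siHoxa5 libraries reached at most 1.19% and those of the siN libraries went down to at least 1.23%, counting error only. The median deviation of the tested members from their siN mean was −0.13, −0.18, −0.14 and −0.17 on the log2 scale in siHoxa5 libraries 1 to 4. A share of counts is relative to the rest of the library, in which cardiomyocyte markers summed to more CPM in siHoxa5 libraries, and is no absolute amount of RNA.

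The calls depended on single libraries and on the method. DESeq2 on the same genes called RAB21 alone among the members (1.95% of all tested genes were lower). Leaving out siN library 2, 0 of the members were called; leaving out any other single library, between 2 and 5 were. Without siHoxa5 libraries 2 and 4 together, which lay apart, 0 of the 6 genes passed and RAB1A (log2 fold change −0.18, adjusted p = 0.00575) and RAB6A (−0.21, adjusted p = 0.0184, edgeR) did, with 2.33% of all tested genes called lower. There the log2 fold change of ARF1 was −0.19 (adjusted p = 0.496, edgeR), against −0.36 with all libraries, while RAB21 had −0.24, RAB30 −0.35 and ARF6 −0.17. Without siHoxa5 library 4 alone ARF1 had −0.26 (adjusted p = 0.198, edgeR). With trends on transcript length and GC content removed from each library, 3 of the 6 genes passed, RAB30 and RAB21 among them (2.68% of all tested genes were lower), and ARF6 had a log2 fold change of −0.08 (adjusted p = 0.489, edgeR). Across 14 alternatives RAB21 was called in 11, ARF1 and RAB30 in 4 each and ARF6 in 3, while the sign of these 4 stayed negative in all 14.

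**Figure D4:**
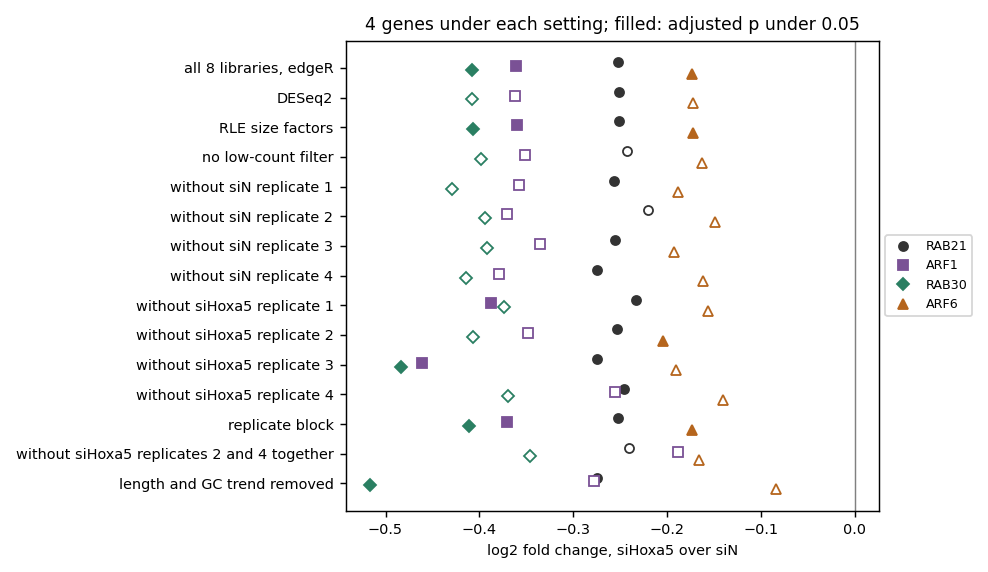
Log2 fold change, siHoxa5 over siN, of ARF1, ARF6, RAB21 and RAB30 under the main setting and 14 alternatives; filled symbols mark an adjusted p under 0.05. All symbols lie left of 0. RAB21 is filled most often, and all 4 are open without the low-count filter, without siN library 2 and without siHoxa5 libraries 2 and 4.

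The lower genes named above lie on different chromosomes of the mouse genome (GRCm38, GENCODE M21). ARF1 is on chromosome 11 (59211412 to 59228270, minus strand), RAB30 on chromosome 7 (92741603 to 92844535, plus strand), ARF6 on chromosome 12 (69372150 to 69373783, plus strand) and RAB21 on chromosome 10 (115287084 to 115315594, minus strand). All are protein-coding genes.

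Promoter windows, from 250 bases before to 50 after the gene's start, were available for 24 of the 29 members (RefSeq, GRCm38.p6). The windows of RAB21 and ARF1 are shown because both genes were lower. Capitals mark 3 motifs or their reverse complements. They are TAAT, the core of homeodomain binding sites, the palindrome TCACGTGA, which contains the E-box CACGTG, and the GC box, GGGCGG. Each is written 5′ to 3′ on the gene's strand, for RAB21 chr10:115315542-115315841 (minus) and for ARF1, the first of 2 windows in the table, chr11:59228218-59228517 (minus).
RAB21: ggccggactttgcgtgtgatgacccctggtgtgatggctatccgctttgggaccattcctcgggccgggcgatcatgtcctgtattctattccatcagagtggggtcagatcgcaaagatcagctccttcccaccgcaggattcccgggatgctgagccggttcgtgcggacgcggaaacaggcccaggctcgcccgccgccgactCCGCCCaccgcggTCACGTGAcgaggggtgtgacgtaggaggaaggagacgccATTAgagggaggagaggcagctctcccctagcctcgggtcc
ARF1: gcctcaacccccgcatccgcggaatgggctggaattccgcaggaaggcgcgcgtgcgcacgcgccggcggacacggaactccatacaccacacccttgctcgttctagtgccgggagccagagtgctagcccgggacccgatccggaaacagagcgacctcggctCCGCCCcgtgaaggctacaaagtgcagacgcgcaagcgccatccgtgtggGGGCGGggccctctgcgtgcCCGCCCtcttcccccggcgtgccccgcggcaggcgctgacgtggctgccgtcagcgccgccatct

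The GC content was 63.7% in the RAB21 window and 70.7% in that of ARF1, against a median of 52.7% over the first windows of 27025 genes. The GC box was in both, in 20 of the 24 member windows and in 35.9% of all windows. TAAT was in the window of RAB21 and not in that of ARF1, in 10 of the 24 member windows and in 58.3% of all windows, while the palindromic homeodomain site TAATTA was in 0 of the 24 and in 5.31% of all. CACGTG occurred in RAB21 and ARF5 (7.24% of all windows), and TCACGTGA in RAB21 alone among the members (1.01% of all). CCAAT was in 11 of the 24 member windows, in neither of these 2 and in 37.9% of all windows. These matches describe letters in a window and nothing more.

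Of 274 listed regulators and effectors of the GTPases 66 were tested, 2 were higher and 1 was lower in siHoxa5 libraries, where 7.12% of all tested genes were called in either direction. Their median log2 fold change was −0.05. MICAL3, a RAB8 partner of the actin-oxidising MICAL family, had 57.1, 61.9, 65.2 and 47.3 CPM in siHoxa5 libraries, against 35.4, 38.1, 23.6 and 24.5 CPM in siN libraries. Its groups did not overlap, and it was higher by 0.93 on the log2 scale (SE 0.24, adjusted p = 0.00390, edgeR). IQSEC2, an ARF exchange factor, had 470.3, 486, 461 and 509 CPM in siHoxa5 libraries, against 372, 424, 398 and 412 CPM in siN libraries. Its groups did not overlap either, but the call (log2 fold change 0.26, adjusted p = 0.0303, edgeR) was made in 5 of the 14 alternatives. AGFG1, a protein with an ARF GAP domain, averaged 1176 ± 54.1 CPM in siHoxa5 libraries and 1444 ± 27.4 CPM in siN libraries (SD, n = 4 each; log2 fold change −0.30, adjusted p = 5.35e-05, edgeR).

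Of 12 tested RAB exchange factors and their partners 0 were called (0 at an unadjusted p under 0.05; 0 by DESeq2, which gave 3 of them no adjusted p), and the smallest p was that of FNIP1, a folliculin partner (log2 fold change 0.28, adjusted p = 0.362, edgeR). Of 13 RAB GAPs 0 were called (1 at an unadjusted p under 0.05; 0 by DESeq2, which gave 5 of them no adjusted p, TBC1D1 included), 11 had negative estimates and the median was −0.25. TBC1D1, the RAB GAP of glucose transport in muscle, ranged from 10.9 to 14.7 CPM in siHoxa5 libraries and from 17.3 to 31.7 CPM in siN libraries. Its groups did not overlap, but the estimate of −0.87 had a wide error (SE 0.37) and did not pass (adjusted p = 0.155, edgeR). Of 7 ARF and ARL effectors 0 were called (0 at an unadjusted p under 0.05; 0 by DESeq2, which gave 4 of them no adjusted p), with UNC119, a carrier of lipidated cargo, at 0.20 (adjusted p = 0.537, edgeR). Of the 12 listed genes that prenylate RAB proteins or extract them from membranes, 8 had counts and 0 passed the filter, so this step could not be compared.

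Among other small GTPases, 3 of 19 tested genes were lower and 0 were higher (0 at an unadjusted p under 0.05, 0 by DESeq2), with a median log2 fold change of −0.07. Of all tested genes 3.38% were called lower and 3.74% higher (edgeR). CDC42, a regulator of actin and polarity, averaged 2561 ± 53.7 CPM in siHoxa5 libraries and 2980 ± 70.8 CPM in siN libraries (SD, n = 4 each; log2 fold change −0.22, adjusted p = 0.000934, edgeR). RAP1B, of cell adhesion, averaged 554 ± 25.5 CPM in siHoxa5 libraries and 718 ± 41.0 CPM in siN libraries (SD, n = 4 each; −0.37, adjusted p = 5.30e-05, edgeR). SAR1A, the GTPase of the COPII coat, was not called (−0.27, adjusted p = 0.0882, edgeR). MICAL3, AGFG1, CDC42 and RAP1B were called in all 14 alternatives, which none of ARF1, ARF6, RAB21 and RAB30 was.

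**Figure D5:**
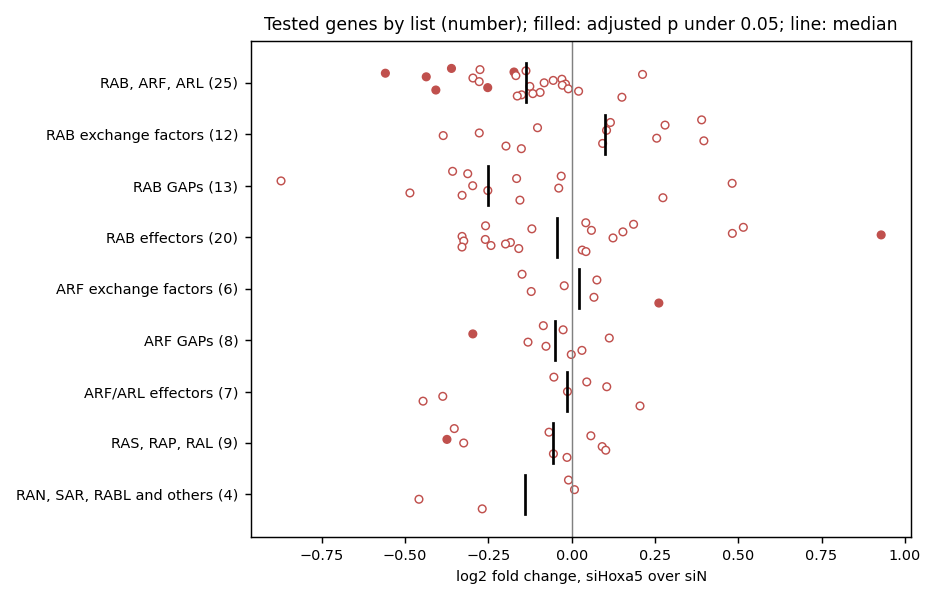
Log2 fold change, siHoxa5 over siN, of each tested gene of the RAB, ARF and ARL families, their regulators and effectors, and some other small GTPases, with the number tested; filled points passed the adjusted p threshold of 0.05 and black lines mark medians. The RAB, ARF and ARL genes have 6 filled points, all left of 0, while RAB exchange factors have none and RAB effectors have 1, MICAL3, at the far right.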

How the data were processed

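The 4 siHoxa5 and 4 siN RNA-seq libraries were grouped by their titles. The authors deposited estimated counts for each symbol without normalization, and 5 values in 4 rows were not whole. The submitters' processing notes name the build mm10 and the tools STAR 2.6.1b, HTSeq, FastQC 0.11.8 and R 3.5.3; the sources used here give neither annotation nor strand setting. Per the labels' protocols, TruSeq libraries were made after poly-T selection. The protocol as described names no step that marks strand, so values of a gene that overlaps another on the opposite strand are uncertain. Blank and summary lines were absent (0 rows), and 27 rows named as calendar dates were kept.

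Counts were rounded and tested with edgeR 4.0.16 (robust quasi-likelihood fit, limma 3.58.1, R 4.3.3) after TMM scaling and filterByExpr (minimum count 10, minimum total 15), group as the only term, with Benjamini-Hochberg adjustment. The 3020 tested genes held 98.6% of the counts, the biological coefficient of variation was 6.10%, and standard errors of log2 fold changes had a median of 0.17. The step was tested on simulated data with a single spread for all genes and larger fold changes than any tested member had. That test therefore does not bear on calls of the size seen here. DESeq2 1.42.0, RLE scaling, no filter, leaving out libraries, a replicate block and removal of length and GC trends (known for 98.3% of tested genes) were alternatives. The filter left out 4 of the 29 members. Members, lists and alternatives were chosen with earlier results of these data known. The genes named are those past the threshold, the 8 highest in CPM, those with the smallest p in each role or list, the largest fold changes and those next to the sum of 40; the remaining members and symbols named beside them were added to account for the families after their values were seen. Deviations of same-numbered libraries from their group means correlated at −0.02 to 0.07, and those of differently numbered libraries at −0.05 to 0.04. These values do not exclude a pairing. Some genes that this rule selects are not reported here.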

Additional observations from a re-analysis of the deposited data

Results flagged for a closer look

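In 42 groups of 4 libraries, the gap between the highest or lowest library and its nearest neighbour was set against the whole range (Dixon's test), and 3 groups passed its critical value. Chance alone flags a small share of such groups. RAB14 was lowest in siHoxa5 library 3, at 909.8 CPM, with the next library at 1006 CPM. The share of counts in the RAB, ARF and ARL genes was lowest in siHoxa5 library 4, at 1.12%, with the next at 1.16%. RAB10 was highest in siN library 1, at 1501 CPM, with the next at 1341 CPM.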

How the results depend on the processing

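The sign of the median log2 fold change of the tested RAB, ARF and ARL genes stayed negative and 0 of them were called higher under every alternative. The number called lower, 6 in the full fit, was 1 with DESeq2, 2 without the low-count filter, 2 without siHoxa5 libraries 2 and 4 together, 3 with length and GC trends removed, and 0 to 5 when each library was left out in turn; the cause was not tested. The median, −0.14, was −0.10 with trends removed and −0.16 to −0.11 when each library was left out. All genes called, 215, were 119 with DESeq2, 143 without siHoxa5 libraries 2 and 4, and 145 to 260 with one library left out. Some estimates changed sign. With each siN library left out in turn RAB10 ranged from −0.0499 to 0.0191 and RAB14 from −0.05 to 0.0233. RAB14 was 0.0181 without siHoxa5 library 3. RAB7A, at −0.15 in the full fit, was 0.0029 without siHoxa5 libraries 2 and 4. ARF4 passed without siHoxa5 library 1 (log2 fold change −0.40, adjusted p = 0.0103, edgeR) and RAB1A without siHoxa5 library 4 (−0.15, adjusted p = 0.0476). Over all named genes and alternatives, 316 values kept direction and side of the threshold, 53 lost the call, 4 gained it and 4 changed sign. Counts of called regulators ranged from 2 to 3 and of other small GTPases from 3 to 4. A sum of 20 or 80 in place of 40 gave 6 genes lower each and a mean siHoxa5 share of 1.15% each. Deviations of same-numbered libraries from their group means correlated at −0.02 to 0.07. Counting error adds to these deviations, so weak correlations cannot exclude that the numbers pair libraries. With the replicate number as a block, 250 genes were called, 6 of the family genes lower, with a median of −0.14. DESeq2 gave no adjusted p for 1 of the 25 tested family genes and for 18 of the 66 tested regulators and effectors. Low depth limits the 4 genes under the filter and RAB13, whose standard error was 0.25.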
